A study of Mus musculus with 6 samples.

Results

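The 35 genes described here encode the enzymes and transporters of glycolysis, the enzymes that decide the fate of pyruvate and lactate, and the regulators and targets of the hypoxia-inducible factor (HIF). They were taken by name from a list drawn up with earlier results of these data known, and all 35 were found among the 55471 genes of the deposited table by matching Ensembl identifiers to mouse symbols. The libraries came from endosteal mesenchymal stromal cells, the connective-tissue progenitors along the inner bone surface, of C57BL/6J mice. The 3 control libraries, labelled WT, carried Bap1fl/fl, a floxed allele of the histone H2A deubiquitinase gene Bap1. The 3 libraries labelled cKO carried Prx1-cre;Bap1fl/fl, so the floxed allele was shared by both groups and the Cre was the difference. The Prx1 promoter is active in limb mesenchyme, so cells of other origin in a preparation would keep the gene. PolyA RNA was sequenced as 151-base pairs. The age of the mice is not given in the sources used here, and nothing in them ties the replicates to different mice. The p-values therefore describe only how these libraries vary, which may be technical.

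Glycolysis turns glucose into pyruvate in the cytosol. Pyruvate is then reduced to lactate and exported, or enters the mitochondrion through pyruvate dehydrogenase, which the PDH kinases switch off. Many steps are served by isozymes with different kinetics and different regulation, so a cell can change the enzyme without changing the step. HIF is an oxygen-controlled transcription factor: prolyl hydroxylases mark its alpha subunit when oxygen is present, the Vhl protein then targets it for destruction, and in low oxygen it switches on glycolytic genes through short DNA motifs. Bone marrow is known as a tissue of low oxygen. The sample labels do not say whether the cells were cultured, so the oxygen around them is not known here.

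Several properties of the libraries bear on every value below. Estimated depth was 13 to 14.8 M fragments in 5 libraries and 22.1 M in cKO replicate 3, so a level of 3 fragments per kilobase, used here as a floor, was 0.136 to 0.231 RPKM (reads per kilobase of transcript, scaled to the size of the library). Bap1 itself stood at 22.8, 22.72 and 24.01 RPKM in WT and at 28.27, 25.16 and 22.99 RPKM in the libraries labelled cKO (log2 difference 0.13 ± 0.10 SE, limma adjusted p = 0.290), and a whole-gene value cannot show whether a floxed exon was removed. Markers of mesenchymal stromal and osteolineage cells summed to 2777 to 2870 RPKM in WT and to 155 to 264 RPKM in cKO. Of 13 tested markers 10 were lower, against 26.5% of all tested genes. Pdgfra was higher, at 7.51, 6.86 and 8.31 RPKM in WT and 19.56, 9.72 and 11.06 RPKM in cKO (limma adjusted p = 0.0451). Prrx1 and Nt5e did not pass. In bulk RNA, fewer cells of a type and less RNA per cell cannot be told apart. Of 12 markers of kidney distal tubule and collecting duct, Pax8 alone made most of the cKO sum of 126 to 248 RPKM (124.15 to 243.21), while Aqp2 reached at most 0.28 RPKM and Calb1, Scnn1g and Slc4a1 were listed at 0 in all 6 libraries. Markers of proximal tubule, blood, endothelium and neurons summed to no more than 5.17 RPKM in any library. Those of skeletal muscle summed to 8.84 to 9.38 RPKM in WT and 2.53 to 13.5 RPKM in cKO, and those of epithelium to 12.6 to 14.9 and 1.96 to 6.01 RPKM. The adipocyte sum, nearly all Fabp4, was 393 to 410 RPKM in WT and 1.68 to 3.95 RPKM in cKO. The part of these marker differences in the results below was not tested.

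The test took genes whose mean over the 6 libraries reached 1 RPKM. Of the 31 that did, 17 fell and 9 rose in the libraries labelled cKO at an adjusted p under 0.05, and 5 did not pass. Over all 12223 tested genes, 26.5% were lower and 34.7% higher. Changes of at least 1 on the log2(RPKM + 1) scale were found in 7 lower genes (Pfkp, Pfkfb4, Eno1, Ldhb, Pdk1, Pdk4 and Bnip3), against 12.3% of all tested genes, and in 5 higher genes (Hk2, Pfkfb3, Slc16a1, Pdk2 and Ndrg1), against 13.4%. The median log2 difference was −0.24 over the 31 genes and 0.09 over all tested genes. In 28 of the 31 the WT and cKO values did not overlap, against 69% of all tested genes. cKO replicate 3 was the cKO library nearest to WT in 16 of the 26 genes that passed and in 54.7% of all genes that passed. Without it, 18 genes were lower and 10 higher. Over all tested genes the calls also grew without it, from 3239 to 3623 lower and from 4237 to 4483 higher.

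**Figure D1:**
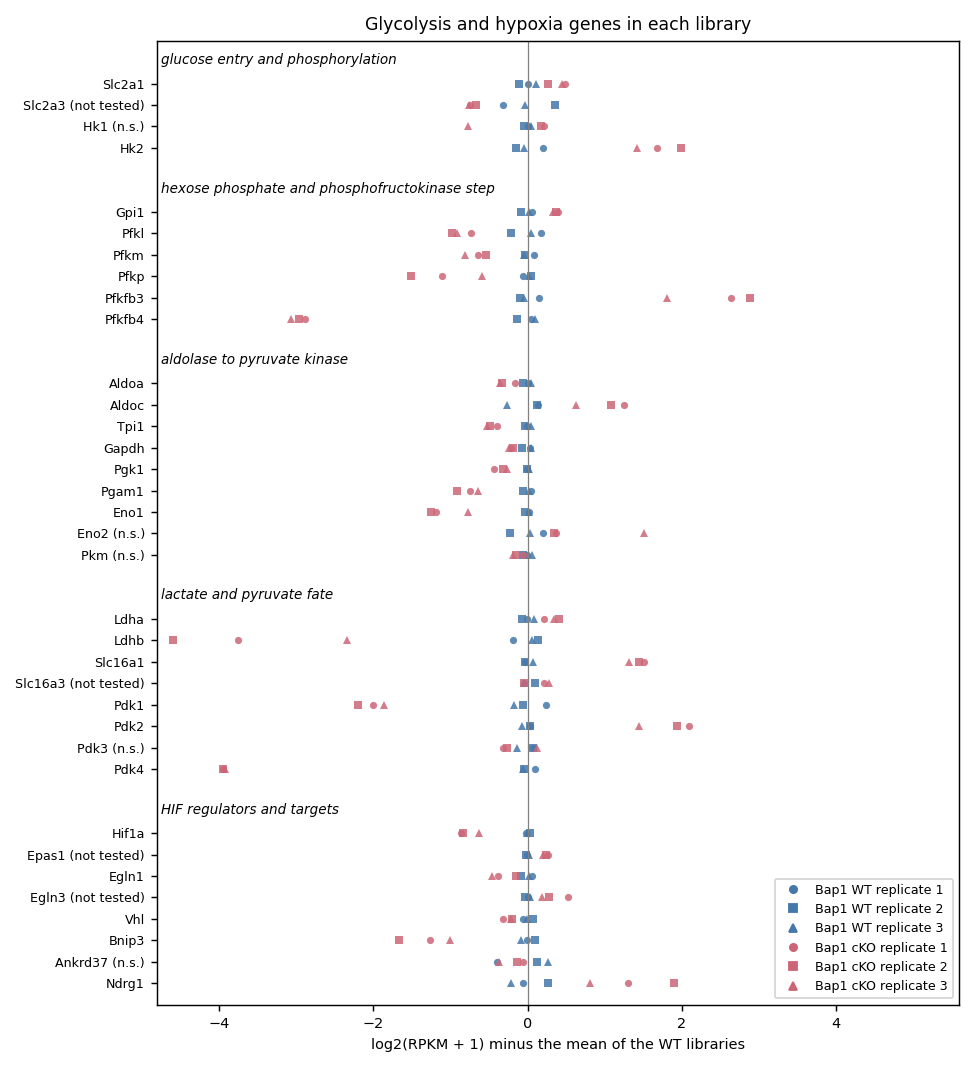
Each point is 1 library, placed by its log2(RPKM + 1) minus the mean of the 3 WT libraries, for the 35 genes grouped by role; n.s. marks genes that did not pass and not tested marks means under 1 RPKM. Aldoa, Tpi1, Gapdh, Pgk1, Pgam1 and Eno1 lie to the left of 0, while Hk2, Pfkfb3, Slc16a1, Pdk2 and Ndrg1 lie far to the right and Pfkfb4, Ldhb, Pdk1 and Pdk4 far to the left.

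Whole chromosomes differed between the groups. The median log2 difference of all tested genes was 0.64 on chromosome 7, which holds Gpi1, Aldoa, Ldha and Bnip3, 0.58 on chromosome 12, which holds Hif1a and Egln3, and 0.44 on chromosome 4, which holds Slc2a1 and Eno1. On chromosome 6, which holds Slc2a3, Hk2, Tpi1, Gapdh, Eno2, Ldhb, Pdk4 and Vhl, it was −0.25. Small differences have to be read against these medians. The cause of the chromosome medians was not tested.

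**Figure D2:**
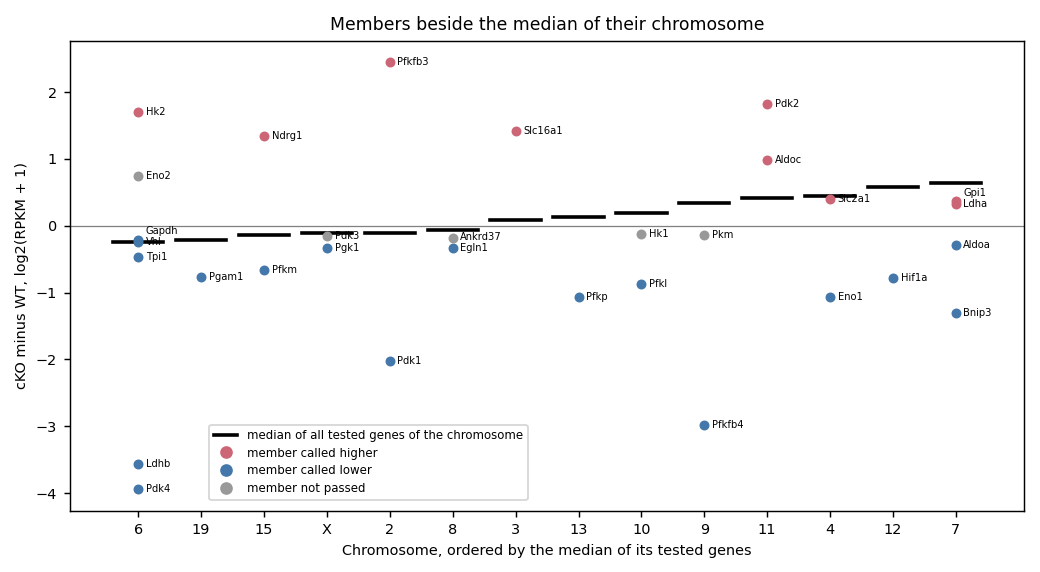
Log2 difference (cKO minus WT) of each of the 31 tested genes, in columns by chromosome, with the median of all tested genes of that chromosome as a black bar. Slc2a1, Gapdh and Vhl sit on or near their bars, Gpi1 and Ldha lie above 0 but below the bar of chromosome 7, and Hk2, Pfkfb3, Pfkfb4, Ldhb, Pdk1, Pdk2 and Pdk4 lie far from theirs.

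At glucose entry and phosphorylation, hexokinase shifted toward Hk2. Hexokinase traps glucose in the cell as glucose 6-phosphate. Hk2 (ENSMUSG00000000628, chromosome 6, 82725025 to 82774454), the inducible form, stood at 11.02, 8.49 and 9.14 RPKM in WT and at 32.46, 40.57 and 27.17 RPKM in cKO. Every cKO value was at least 2 times every WT value, a 3.50-fold rise of the mean (log2 difference 1.69 ± 0.17, limma adjusted p = 0.000232). Hk1, the constitutive form, stood at 58.02, 55.7 and 59.44 RPKM in WT and at 67.12, 65.33 and 33.29 RPKM in cKO. The first 2 cKO libraries were above WT and the third far below, so Hk1 did not pass (adjusted p = 0.694), and its difference changed from −0.13 to 0.20 without cKO replicate 3 (adjusted p = 0.0328). The share of Hk2 in the summed RPKM of the hexokinase family went from 14.2% ± 1.55 to 38.6% ± 6.19 (SD, n = 3 in each group). It was 13.2% to 16% in every WT library and 32.6% to 44.9% in every cKO library. Hk3 and Hkdc1 never exceeded 0.14 RPKM. With 3 libraries against 3, the exact permutation test cannot go below p = 0.1, and that is the p of every share, sum and ratio below whose groups did not overlap (0.172 after Benjamini-Hochberg adjustment over 43 shares, 0.12 over 13 ratios).

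Glucose transport rests on facilitative transporters, of which Slc2a1 (GLUT1) is the common form and Slc2a3 (GLUT3) a high-affinity form. Slc2a1 stood at 14.07, 12.8 and 15.07 RPKM in WT and at 19.92, 16.9 and 19.34 RPKM in cKO, a 1.34-fold rise (log2 difference 0.40 ± 0.10, limma adjusted p = 0.0150) that is about as large as the median of its chromosome, 0.44, and changed sign to −0.04 with each chromosome centred. Its call was also lost under median-of-ratios scaling (0.0553) and quantile normalization (0.0585), and without WT replicate 1 (0.0507) or WT replicate 2 (0.0561). Slc2a3 stood at 0.37, 1.18 and 0.66 RPKM in WT and at 0.02, 0.07 and 0.01 RPKM in cKO. The WT values were above the floor and the cKO values under it, and the mean was too low for the test.

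The phosphofructokinase step, the main control point of the pathway, was lower in each of its 3 isozymes. Pfkl, the liver-type subunit, stood at 42.5, 32.2 and 38.62 RPKM in WT and at 22.14, 18.48 and 19.43 RPKM in cKO, a 1.89-fold fall (adjusted p = 0.00116). Pfkm, the muscle-type subunit, stood at 34.28, 31.61 and 31.41 RPKM in WT and at 20.35, 22.01 and 18.02 RPKM in cKO, a 1.61-fold fall (adjusted p = 0.00125). Pfkp, the platelet-type subunit (ENSMUSG00000021196, chromosome 13, 6579768 to 6648777), stood at 12.9, 13.9 and 13.72 RPKM in WT and at 5.73, 4.08 and 8.62 RPKM in cKO, a 2.20-fold fall (log2 difference −1.07 ± 0.23, adjusted p = 0.00612). In all 3 the groups did not overlap. The summed RPKM of the subunits fell 1.81-fold, from 83.7 ± 5.99 to 46.3 ± 1.83. Their shares overlapped between the groups: Pfkl made 45% ± 3.13 of the sum in WT and 43.2% ± 2.39 in cKO (exact permutation p = 0.5).

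The bifunctional enzymes that make and break fructose 2,6-bisphosphate, the strongest activator of phosphofructokinase, exchanged Pfkfb4 for Pfkfb3. Pfkfb3, whose kinase activity far exceeds its phosphatase activity, and Pfkfb4 are both known HIF targets, so the stretches upstream of their starts are shown with the HIF core motif in capitals. The motif was searched as ACGTG and GCGTG on both strands in 250 bases before each RefSeq start (GRCm38.p6), and the capitals take in the whole of a CACGTG, the E-box that ACGTG overlaps. Of 32851 such windows in RefSeq's table, 38.6% held a core and 6.02% held CACGTG. For genes with several starts the window of the most upstream one is given.
Pfkfb3: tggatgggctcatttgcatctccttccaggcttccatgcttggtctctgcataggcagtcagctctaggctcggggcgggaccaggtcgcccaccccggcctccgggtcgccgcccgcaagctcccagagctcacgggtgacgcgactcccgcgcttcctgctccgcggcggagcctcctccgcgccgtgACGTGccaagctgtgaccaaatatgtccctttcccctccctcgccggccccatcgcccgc
Pfkfb4: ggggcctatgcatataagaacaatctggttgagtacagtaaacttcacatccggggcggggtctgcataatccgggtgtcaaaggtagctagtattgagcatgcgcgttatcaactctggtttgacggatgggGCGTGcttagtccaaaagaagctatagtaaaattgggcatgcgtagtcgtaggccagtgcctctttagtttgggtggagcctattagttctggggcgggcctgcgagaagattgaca
The Pfkfb3 window is chr2:11553930-11554179 on the minus strand and the Pfkfb4 window chr9:108991652-108991901 on the plus strand, each read 5′ to 3′ along its gene. Each held 1 core. The genes themselves moved in opposite directions.

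Pfkfb3 (ENSMUSG00000026773, chromosome 2, 11471433 to 11554077) stood at 5.29, 4.27 and 4.47 RPKM in WT and at 34.39, 40.83 and 18.91 RPKM in cKO. The lowest cKO library, replicate 3, was still above 3 times the highest WT library, and the mean rose 6.71-fold (log2 difference 2.45 ± 0.27, limma adjusted p = 0.000393). Pfkfb4 (ENSMUSG00000025648, chromosome 9, 108991778 to 109032228) stood at 16.65, 14.63 and 17.33 RPKM in WT and at 1.33, 1.2 and 1.04 RPKM in cKO. The 3 cKO libraries were close to each other and far under WT, a 13.6-fold fall (log2 difference −2.97 ± 0.12, adjusted p = 6.67e-06). Pfkfb1, which with Pfkfb2 belongs to the family but not to the 35 genes, fell 2.40-fold from 4.9, 4.39 and 4.12 to 1.67, 1.6 and 2.31 RPKM (adjusted p = 0.00160). Pfkfb2 stood at 7.23, 8.41 and 8.24 RPKM in WT and at 8.62, 7.32 and 7.38 RPKM in cKO and did not pass (adjusted p = 0.825). Pfkfb3 made 14% ± 1.31 of the family's summed RPKM in WT and 72.9% ± 8.33 in cKO, and Pfkfb4 made 48.6% ± 2.30 and 2.92% ± 0.577. The sums themselves overlapped, at 31.7 to 34.16 RPKM in WT and 46.01, 50.95 and 29.64 RPKM in cKO replicates 1 to 3 (exact permutation p = 0.4).

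**Figure D3:**
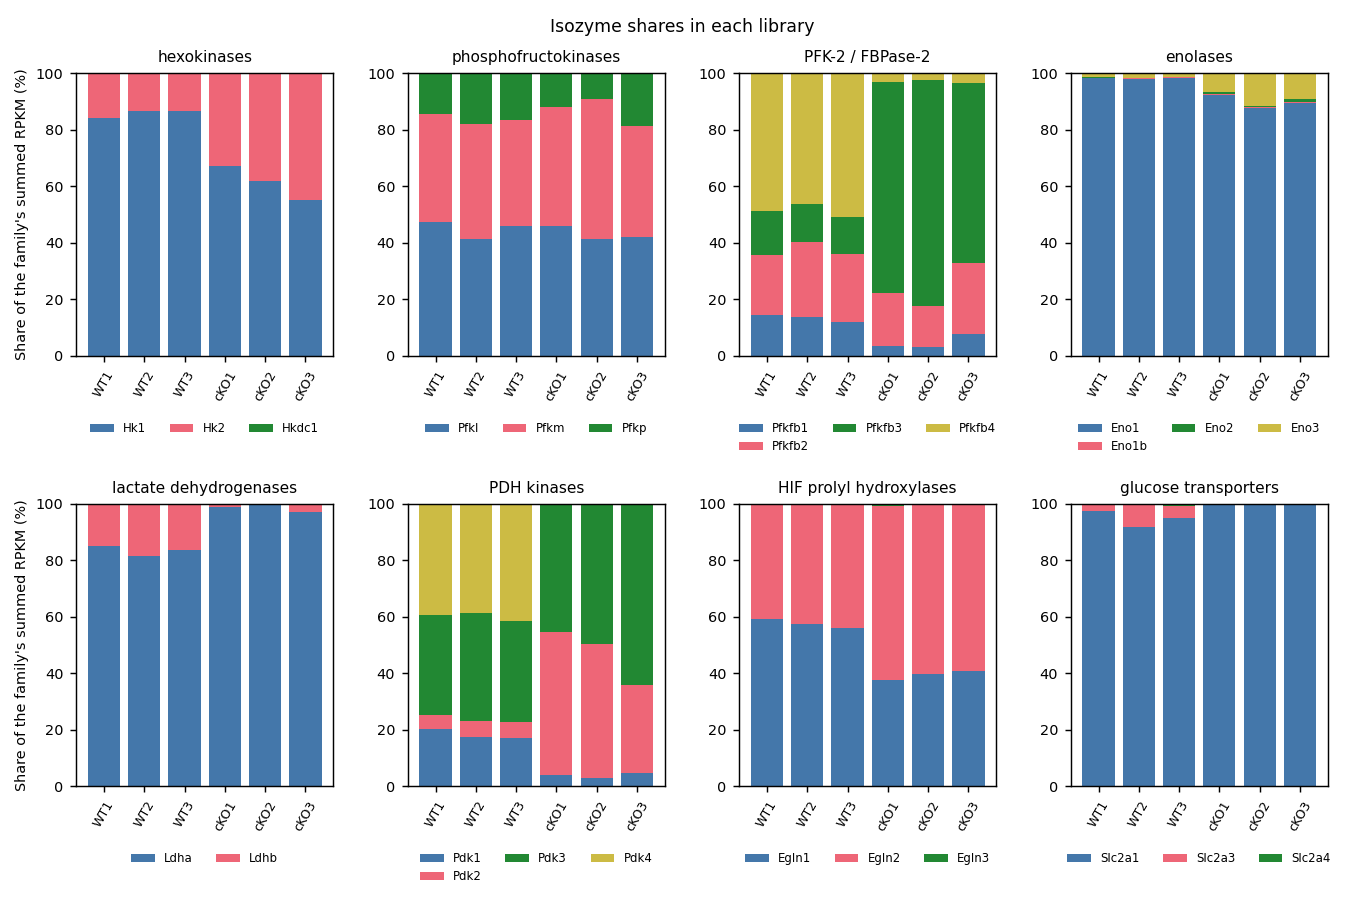
Share of each isozyme in the summed RPKM of its family (percent), 1 bar per library, for 8 families; isozymes under 0.1% in every library are not drawn. The PFK-2, PDH kinase and lactate dehydrogenase bars change their composition between WT and cKO in every library, Hk2 takes 32.6% to 44.9% of the hexokinase bar in cKO, and the phosphofructokinase shares overlap between the groups.

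Gpi1, which turns glucose 6-phosphate into fructose 6-phosphate before that step, stood at 128.2, 115.88 and 124.58 RPKM in WT and at 162.43, 158.86 and 153.91 RPKM in cKO. The groups did not overlap and Gpi1 rose 1.29-fold (log2 difference 0.36 ± 0.07, limma adjusted p = 0.00318), less than the median of chromosome 7, and with each chromosome centred it was lower (−0.28, adjusted p = 0.0119).

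From aldolase to pyruvate kinase, where the carbon is split and ATP is regained, 6 of 9 genes fell, 1 rose and 2 did not pass. The 6 are abundant transcripts and their falls ranged from 1.16-fold to 2.08-fold. Eno1 (ENSMUSG00000063524, chromosome 4, 150236721 to 150248879), the ubiquitous enolase, stood at 547.15, 526.51 and 549.26 RPKM in WT and at 237.03, 226.3 and 315.77 RPKM in cKO. The highest cKO library, replicate 3, lay far under the lowest WT library, although chromosome 4 as a whole was higher, and Eno1 fell 2.08-fold (log2 difference −1.07 ± 0.13, adjusted p = 0.000534). Pgam1, the phosphoglycerate mutase, fell 1.70-fold from 385.06, 359.57 and 380.29 to 222.61, 197.62 and 240.61 RPKM (adjusted p = 0.000390). The muscle paralog Pgam2 stayed at or under 0.54 RPKM.

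Tpi1, the triose phosphate isomerase, fell 1.39-fold from 407 ± 11.3 to 293 ± 13.7 RPKM (n = 3 in each group; log2 difference −0.47, limma adjusted p = 0.000734), on chromosome 6 with a median of −0.25 (−0.23 with each chromosome centred). Pgk1, the phosphoglycerate kinase, fell 1.26-fold from 386 ± 4.36 to 306 ± 18.0 RPKM (log2 difference −0.34, adjusted p = 0.00388) beside an X chromosome median of −0.115, a call that was lost under quantile normalization (0.0512). Aldoa, the main aldolase, stood at 423.26, 404.49 and 433.81 RPKM in WT and at 375.81, 334.66 and 326.56 RPKM in cKO, a 1.22-fold fall (adjusted p = 0.0142) on a chromosome whose median was higher. Its call was lost without WT replicate 1 (0.0549), without WT replicate 3 (0.0602) and under quantile normalization (0.15). Gapdh, which is widely used as a reference gene, fell 1.16-fold from 3511.27, 3254.14 and 3526.4 to 2951.28, 3007.15 and 2895.66 RPKM (log2 difference −0.22 ± 0.06, adjusted p = 0.0150), but its direction turned under quantile normalization (0.02) and with each chromosome centred (0.03). Its call was also lost without WT replicate 1 (0.0693) or 3 (0.0701), with no minimum (0.137), with a variance prior without trend (0.0559) and with the replicate number as a block (0.0628). Gapdh has 30 near-identical copies in the annotation, which together were listed at 45.7 to 60.4 RPKM, or 1.61% of its mean, and Pgk1, Pgam1, Eno1 and Bnip3 have 1 to 3 with smaller shares, so the split of fragments among them is uncertain.

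Among the minor isozymes of these steps, Aldoc and Eno3 rose. Aldoc, the brain-type aldolase, stood at 0.88, 0.87 and 0.43 RPKM in WT and at 3.08, 2.64 and 1.64 RPKM in cKO, a 3.38-fold rise (log2 difference 0.99 ± 0.22, limma adjusted p = 0.00746) that missed the threshold with each chromosome centred (0.0655). Aldoc still made only 0.698% ± 0.173 of the summed aldolase RPKM in cKO. Eno2, the neuronal enolase, stood at 1.07, 0.53 and 0.84 RPKM in WT and at 1.32, 1.28 and 4.13 RPKM in cKO. All cKO values exceeded all WT values, with replicate 3 far above the others, and Eno2 did not pass (adjusted p = 0.102). It passed, as higher, with each chromosome centred (0.0448). Eno3, the muscle enolase, a family member outside the 35, rose 3.46-fold from 7.63, 8.47 and 6.78 to 17.29, 29.56 and 32.37 RPKM (adjusted p = 0.00118). It made 1.39% ± 0.183 of the summed enolase RPKM in WT and 9.13% ± 2.37 in cKO. That sum still fell 1.91-fold, from 551 ± 12.5 to 289 ± 55.4 RPKM. Of the 8 skeletal muscle markers, Ckm, Myh4, Myog and Ttn were listed at 0 in all 6 libraries and Mb and Myh1 stayed at or under 0.24 RPKM. Tnnt3, a fast muscle troponin, rose from 0, 0.17 and 0.5 to 2.91, 1.28 and 3.46 RPKM (limma adjusted p = 0.00474). Acta1, the skeletal muscle actin, stood at 9.13, 8.66 and 8.75 RPKM in WT and at 0.41, 1.25 and 9.94 RPKM in cKO and did not pass. The part of these markers in the rise of Eno3 was not tested.

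Pkm, the pyruvate kinase gene, stood at 866.88, 835.1 and 901.84 RPKM in WT and at 834.95, 780.77 and 757.68 RPKM in cKO. The groups were separated by less than 1 RPKM and Pkm did not pass (log2 difference −0.13 ± 0.06, limma adjusted p = 0.107), on chromosome 9 with a median of 0.34. It passed, as lower, under median-of-ratios scaling (0.0202) and with each chromosome centred (0.00103). Pkm has muscle and embryonic splice forms with different activity, which 1 value per gene does not separate. Pklr, the liver and red-cell gene, made at most 0.00231% of the pyruvate kinase sum in any library.

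Lactate dehydrogenase lost most of its B subunit transcript. The enzyme is a tetramer of Ldha and Ldhb subunits, of which Ldha is known for favouring the formation of lactate and Ldhb its oxidation to pyruvate. Ldha is a classic target of both HIF and Myc, and its upstream window is shown beside that of Ldhb because they differ in the motif.
Ldha: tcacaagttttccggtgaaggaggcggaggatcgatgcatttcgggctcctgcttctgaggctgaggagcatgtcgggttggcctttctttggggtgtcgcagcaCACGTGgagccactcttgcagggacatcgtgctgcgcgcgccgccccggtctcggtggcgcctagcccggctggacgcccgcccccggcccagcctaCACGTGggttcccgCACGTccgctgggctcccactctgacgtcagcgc
Ldhb: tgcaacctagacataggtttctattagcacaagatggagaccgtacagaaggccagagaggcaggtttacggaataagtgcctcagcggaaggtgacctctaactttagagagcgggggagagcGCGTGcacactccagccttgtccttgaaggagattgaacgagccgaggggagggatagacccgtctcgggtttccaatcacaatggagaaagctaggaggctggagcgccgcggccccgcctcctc
The windows are chr7:46845554-46845803 on the plus strand for Ldha and chr6:142507958-142508207 on the minus strand for Ldhb (RefSeq, GRCm38.p6). That of Ldha held 3 places with a core, 2 of them CACGTG, and that of Ldhb held 1 core, GCGTG.

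Ldhb (ENSMUSG00000030246, chromosome 6, 142490249 to 142507957) stood at 76.7, 95.68 and 90.86 RPKM in WT and at 5.57, 2.64 and 16.45 RPKM in cKO. Replicate 3 was the highest cKO library by far and still lay under every WT library, and Ldhb fell 10.7-fold (log2 difference −3.56 ± 0.52, limma adjusted p = 0.00132), or 21.4-fold without cKO replicate 3. Ldha (ENSMUSG00000063229, chromosome 7, 46841475 to 46855627) stood at 436.32, 415.9 and 463.67 RPKM in WT and at 509.79, 579.34 and 554.99 RPKM in cKO. The groups did not overlap and Ldha rose 1.25-fold (log2 difference 0.32 ± 0.07, adjusted p = 0.00901), less than the 0.64 of chromosome 7, so that it was lower with each chromosome centred (−0.32, adjusted p = 0.0102). The summed RPKM of the family overlapped between the groups, at 526 ± 24.4 and 556 ± 35.8 (exact permutation p = 0.2). Within that sum Ldhb went from 16.7% ± 1.89 to 1.47% ± 1.26, with 15% to 18.7% in WT libraries and 0.454% to 2.88% in cKO libraries (mean 0.767% without cKO replicate 3).

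The lactate exporters form part of the monocarboxylate transporter family. Slc16a1 (MCT1; ENSMUSG00000032902, chromosome 3, 104638668 to 104658462), which carries lactate and pyruvate in both directions, stood at 10.9, 10.86 and 11.72 RPKM in WT and at 33.58, 32.21 and 29.2 RPKM in cKO. Libraries within a group lay close together, and Slc16a1 rose 2.84-fold (log2 difference 1.42 ± 0.09, limma adjusted p = 4.00e-05). Slc16a3 (MCT4), the exporter of highly glycolytic cells and a HIF target, stood at 0, 0.1 and 0 RPKM in WT and at 0.2, 0 and 0.25 RPKM in cKO, at or near the floor throughout and too low for the test.

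The PDH kinases, which phosphorylate pyruvate dehydrogenase and so hold pyruvate out of the mitochondrion, changed from Pdk4, Pdk3 and Pdk1 to Pdk3 and Pdk2. Pdk1 is a known HIF target and Pdk4 a gene of fasting and fat oxidation. The upstream windows of Pdk1 and Pdk2, which moved in opposite directions, are shown with the same capitals.
Pdk1: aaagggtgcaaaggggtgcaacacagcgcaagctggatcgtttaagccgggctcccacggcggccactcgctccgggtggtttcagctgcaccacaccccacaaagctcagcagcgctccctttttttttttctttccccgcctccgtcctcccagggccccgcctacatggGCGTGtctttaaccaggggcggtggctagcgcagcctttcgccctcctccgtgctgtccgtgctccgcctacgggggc
Pdk2: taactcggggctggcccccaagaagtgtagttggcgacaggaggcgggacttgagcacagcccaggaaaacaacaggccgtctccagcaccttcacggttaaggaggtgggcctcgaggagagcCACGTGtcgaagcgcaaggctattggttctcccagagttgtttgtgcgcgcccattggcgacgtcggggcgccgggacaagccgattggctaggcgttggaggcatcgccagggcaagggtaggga
They are chr2:71872974-71873223 on the plus strand for Pdk1 and chr11:95041372-95041621 on the minus strand for Pdk2 (RefSeq, GRCm38.p6). Pdk1 held 1 GCGTG and Pdk2 held 1 CACGTG.

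Pdk4 (ENSMUSG00000019577, chromosome 6, 5483351 to 5496309) stood at 15.51, 13.9 and 13.83 RPKM in WT and was listed at 0, 0 and 0.01 RPKM in cKO (log2 difference −3.94 ± 0.11, limma adjusted p = 2.32e-06). It was the kinase with the highest WT mean and lay under the floor in every cKO library. Pdk1 (ENSMUSG00000006494, chromosome 2, 71873224 to 71903858) fell from 7.92, 6.29 and 5.72 to 0.89, 0.66 and 1.09 RPKM, or 7.55-fold (log2 difference −2.02 ± 0.16, adjusted p = 0.000106). Pdk2 (ENSMUSG00000038967, chromosome 11, 95026258 to 95041354), a widely expressed form, rose from 2, 2 and 1.8 to 11.51, 10.24 and 7.01 RPKM, or 4.96-fold (log2 difference 1.83 ± 0.18, adjusted p = 0.000244). Its rise exceeded the median of chromosome 11, 0.42. Pdk3 stood at 13.97, 13.92 and 11.91 RPKM in WT and at 10.39, 10.85 and 14.44 RPKM in cKO, did not pass (adjusted p = 0.378), and fell without cKO replicate 3 (log2 difference −0.29, adjusted p = 0.0452). The sum of the 4 kinases fell 1.62-fold, from 36.3 ± 3.07 to 22.4 ± 0.545 RPKM. In that sum Pdk4 went from 39.8% ± 1.59 to 0.0148% ± 0.0256, Pdk1 from 18.2% ± 1.62 to 3.92% ± 0.900, Pdk2 from 5.34% ± 0.239 to 42.9% ± 10.4 and Pdk3 from 36.6% ± 1.69 to 53.2% ± 9.65. cKO replicate 3 held the lowest share of Pdk2 (31.1%) and the highest of Pdk3 (64%).

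**Figure D4:**
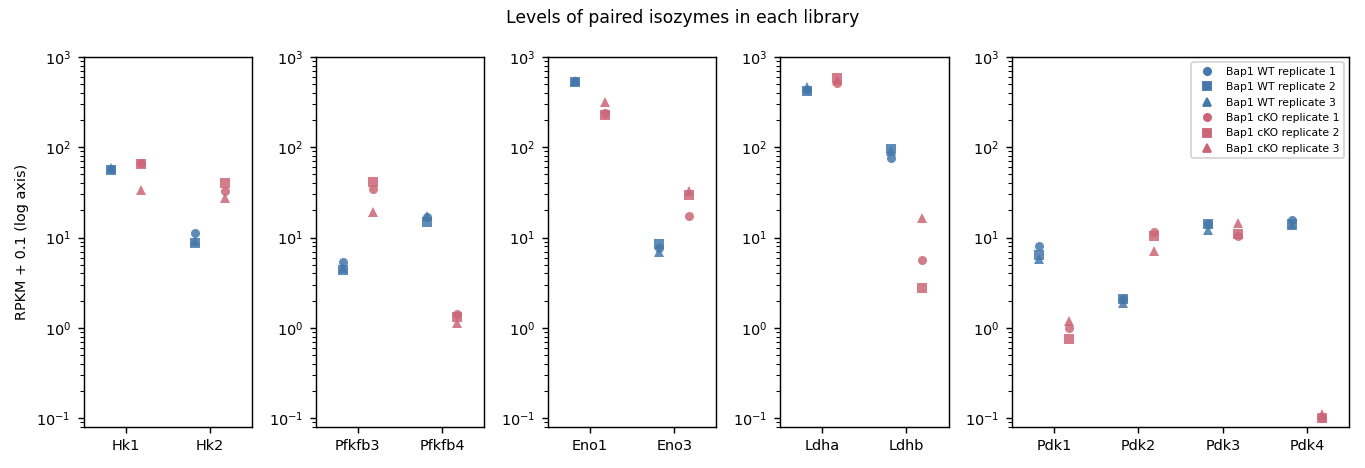
RPKM + 0.1 on a log axis of paired isozymes in each library; WT in blue, cKO in red, with the replicate given by the marker. In the pairs Pfkfb3 with Pfkfb4 and Pdk1 with Pdk2 the order of the isozymes is reversed in every cKO library, Ldhb drops away from Ldha, and Hk2 nears Hk1 without passing it.

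Set as differences in log2(RPKM + 1) between isozymes of the same library, in which the scaling of a library largely cancels, 11 of 13 isozyme pairs did not overlap between the groups. For single genes the share without overlap was 69% of all tested. Those of largest change were Pdk2 over Pdk4, from −2.39 ± 0.0748 to 3.37 ± 0.344, Pfkfb3 over Pfkfb4, from −1.60 ± 0.131 to 3.82 ± 0.490, Ldhb over Ldha, from −2.31 ± 0.193 to −6.20 ± 1.16, and Pdk2 over Pdk1, from −1.37 ± 0.173 to 2.47 ± 0.465 (SD, n = 3 in each group). The 2 pairs that overlapped were Pfkm over Pfkl (exact permutation p = 0.3) and Pfkp over Pfkl (0.6). Chromosome medians do not cancel where the isozymes lie on different chromosomes. Ldhb lies on chromosome 6 (median −0.25) and Ldha on chromosome 7 (0.64), and Egln2 on chromosome 7 and Egln1 on chromosome 8 (−0.06). Pdk2 enters several pairs, so the pairs are not independent of each other.

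Of the 5 HIF regulators, Hif1a, Egln1 and Vhl fell, the calls of the last 2 being easily lost, and Epas1 and Egln3 were too low to test. Hif1a (ENSMUSG00000021109, chromosome 12, 73901375 to 73947530), the oxygen-controlled subunit, stood at 47.41, 49.37 and 48.17 RPKM in WT and at 26.07, 26.6 and 30.95 RPKM in cKO. The groups were well apart, and Hif1a fell 1.73-fold (log2 difference −0.78 ± 0.09, limma adjusted p = 0.000420) on a chromosome whose median was 0.58 higher. HIF is controlled mainly through the stability of its protein, which RNA does not show. Epas1, which encodes the alternative alpha subunit, was low, at 0.02, 0.01 and 0.04 RPKM in WT and 0.23, 0.21 and 0.18 RPKM in cKO, and was not tested. The WT values were under the floor and the cKO values near it.

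Among the prolyl hydroxylases, Egln1 (PHD2), the main oxygen sensor, fell 1.27-fold from 27.98, 25.3 and 27.16 to 20.23, 23.94 and 19.15 RPKM (log2 difference −0.34 ± 0.10, limma adjusted p = 0.0288), beside a chromosome 8 median of −0.06. This call was lost without WT replicate 1, 2 or 3 (0.102, 0.0512 and 0.0903), without cKO replicate 1 (0.0754), with the replicate number as a block (0.0749) and with each chromosome centred (0.0613). Egln3 (PHD3), a HIF target itself, was listed at 0.03, 0 and 0.05 RPKM in WT and at 0.48, 0.24 and 0.17 RPKM in cKO and was not tested. Egln2 (PHD1), a family member outside the 35, rose 1.63-fold from 19.43, 18.83 and 21.29 to 33.32, 36.25 and 27.64 RPKM (log2 difference 0.67 ± 0.12, adjusted p = 0.00275), close to the 0.64 of its chromosome 7. Egln1 made 57.4% ± 1.49 of the summed RPKM in WT and 39.3% ± 1.69 in cKO, so the leading transcript was Egln1 in every WT library and Egln2 in every cKO library. Vhl, the substrate receptor that removes hydroxylated HIF, stood at 11.89, 13.02 and 12.26 RPKM in WT and at 9.75, 10.6 and 10.57 RPKM in cKO, a 1.20-fold fall at the edge of the threshold (adjusted p = 0.0487). It equalled the median of chromosome 6, with a difference of 0.0039 when each chromosome was centred, and its call was lost, among other alternatives, without any of WT replicates 1 to 3 (0.0936, 0.148 and 0.123), without cKO replicate 1 (0.107) or 2 (0.0698), and with the replicate number as a block (0.118).

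The HIF targets of the set did not move together. Bnip3 (ENSMUSG00000078566, chromosome 7, 138890836 to 138909519), a mitochondrial protein that promotes mitophagy, stood at 24.12, 26.01 and 22.77 RPKM in WT and at 9.53, 6.97 and 11.6 RPKM in cKO. It fell 2.59-fold (log2 difference −1.31 ± 0.17, limma adjusted p = 0.000810) against the upward median of its chromosome. Ndrg1 (ENSMUSG00000005125, chromosome 15, 66929318 to 66969640), a stress-induced gene of growth arrest and differentiation, stood at 10.1, 12.84 and 8.95 RPKM in WT and at 27.46, 42 and 19.26 RPKM in cKO, a 2.78-fold rise (log2 difference 1.34 ± 0.28, adjusted p = 0.00578). The cKO libraries differed from each other by more than the WT libraries did, with replicate 3 lowest. Ankrd37, a small ankyrin-repeat protein, stood at 0.94, 1.78 and 2.05 RPKM in WT and at 1.44, 1.32 and 0.97 RPKM in cKO; the groups overlapped (adjusted p = 0.475).

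Windows with a HIF core were found among genes of either direction. RefSeq starts were found for 32 of the 35 genes, all but Slc2a3, Epas1 and Ndrg1. Counting the most upstream start of each, a core stood in the window of 7 of 8 genes that rose, 14 of 17 that fell and 2 of 5 that did not pass. CACGTG stood in 3, 3 and 0 of them. Over all 46 windows of these genes, counting every start, 36 held a core (78.3%) and 7 held CACGTG. Of all 32851 RefSeq windows 38.6% held a core and 6.02% held CACGTG. These windows were not matched to those of the genes in base composition, and the difference was not tested. A match is a run of letters and not a measured binding site.

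The counts for related lists are to be read against the 26.5% lower and 34.7% higher of all tested genes. The list of other glycolysis genes is wide and takes in sugar transporters, pyruvate carriers and malic enzymes besides glycolytic enzymes. Of its 19 tested genes 10 fell and 3 rose, with a median log2 difference of −0.47. Those that fell were Pfkfb1, Bpgm, Slc2a10, Bsg, Mpc2, Pgm2, Galm, Gpd2, Me1 and Me2. Eno3, Adpgk and Mpc1 rose, so the counts do not describe glycolytic enzymes alone. Galm, which converts beta-glucose to alpha-glucose, fell 12.3-fold to 0.41 ± 0.147 RPKM. Slc2a10 fell 7.96-fold to 0.63 ± 0.148 RPKM and Me1, the cytosolic malic enzyme, fell 2.71-fold to 23.1 ± 5.33 RPKM. Adpgk, an ADP-dependent glucokinase, rose 1.70-fold to 32.7 ± 0.427 RPKM (log2 difference 0.74), on chromosome 9 with a median of 0.34.

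Of 32 other tested HIF pathway genes and targets, 12 rose, 9 fell and 11 did not pass (median 0.18), shares close to those of all tested genes. Plod2, a collagen lysyl hydroxylase, rose 9.94-fold, from 38.29, 39.25 and 37.88 to 466.13, 294.46 and 387.12 RPKM (limma adjusted p = 1.63e-05). Stc2, a secreted glycoprotein, went from 0.04, 0.06 and 0.07 RPKM, under the floor, to 200.2, 136.58 and 78.03 RPKM (adjusted p = 1.23e-05). Higd1a, a mitochondrial protein, rose 1.60-fold (log2 difference 0.67, limma adjusted p = 0.000649), also on chromosome 9 with its median of 0.34. Angptl4, a lipoprotein lipase inhibitor, fell 5.71-fold from 38.46, 38.96 and 39.62 to 9.52, 4.38 and 6.58 RPKM (adjusted p = 0.000210).

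For pyruvate dehydrogenase and the TCA cycle, 7 of 26 genes were higher, 6 lower and 13 did not pass (median 0.08), shares at or under those of all tested genes. Pcx, the pyruvate carboxylase that feeds pyruvate into the cycle as oxaloacetate, fell 5.78-fold from 14.73, 13.35 and 14.55 to 2.13, 3.14 and 2.1 RPKM (limma adjusted p = 5.27e-05). Idh2, the mitochondrial NADP-linked isocitrate dehydrogenase, fell 4.06-fold to 19.2 ± 4.27 RPKM (adjusted p = 8.20e-05). Sdhd and Suclg2, subunits of succinate dehydrogenase and of a succinyl-CoA ligase, rose 1.49-fold and 1.66-fold. For Sdhd the log2 difference was 0.57, on chromosome 9 with a median of 0.34. In gluconeogenesis 2 of 5 tested genes rose and 2 fell (median 0.31): G6pc3, a glucose 6-phosphatase, rose 3.08-fold, Got1 and Pck2 fell 2.64-fold and 3.08-fold, and Mdh1 rose 1.29-fold, with a log2 difference of 0.36 on chromosome 11, whose median was 0.42.

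In the pentose phosphate pathway, which branches off at glucose 6-phosphate, 4 of 8 genes rose and 3 fell (median 0.30). H6pd, the form in the endoplasmic reticulum, rose 7.45-fold from 13.4, 13.19 and 12.7 to 102.12, 113.92 and 76.75 RPKM (limma adjusted p = 2.16e-05). G6pdx, the first enzyme of the cytosolic branch, rose 2.30-fold to 297.41, 310.84 and 163.29 RPKM, with replicate 3 lowest. Tkt and Pgd fell 1.87-fold and 1.52-fold. Of 11 tested glycogen genes 7 fell and 2 rose (median −0.58). Gbe1, the branching enzyme, fell 7.06-fold to 1.05 ± 0.332 RPKM, Phka2 and Ugp2 fell 2.06-fold and 1.65-fold, and Phkg2, a phosphorylase kinase subunit, rose 3.02-fold.

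Of 11 tested upstream regulators of glycolysis genes, 5 rose and none fell (median 0.53), beside 34.7% and 26.5% of all tested genes. Myc, the transcription factor that shares many glycolytic targets with HIF, rose 3.12-fold from 39.1, 39.75 and 45.32 to 154.91, 123.16 and 109.49 RPKM (log2 difference 1.61 ± 0.14, limma adjusted p = 0.000136), on a chromosome with a median of −0.14. No fragment of its paralog Mycn was listed in WT, while the cKO libraries held 2.31, 1.54 and 9.36 RPKM. Foxk2 and Akt2 rose 2.24-fold and 1.78-fold, on chromosomes 11 and 7 with medians of 0.42 and 0.64.

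**Figure D5:**
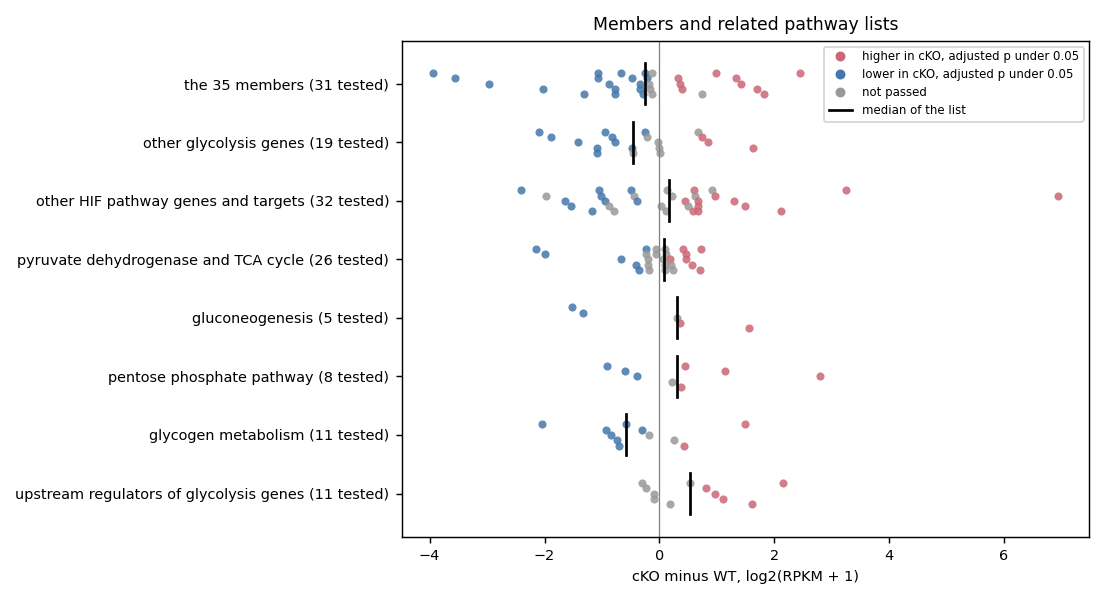
Log2 difference (cKO minus WT) of every tested gene of the 35 and of 7 related lists, 1 point per gene, coloured by call, with the median of each list as a black bar. The medians of the 35 genes (−0.24), the other glycolysis genes (−0.47) and the glycogen genes (−0.58) lie under 0, and every list holds points on both sides of 0.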

How the data were processed

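PolyA RNA of 6 libraries, 3 labelled Bap1 WT and 3 labelled Bap1 cKO, was analysed from the table of RPKM values the authors deposited. Per the submitters' processing notes, reads were processed with cutadapt 2.8, STAR 2.7.1a and RSEM 1.3.1 on GRCm38; settings and strand use are not given in the sources used here. Symbols and gene coordinates came from GENCODE M21 (55144 of 55471 identifiers matched); where a symbol had several identifiers, the one with the highest mean was used.

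A minimum mean of 1 RPKM left 12223 genes, which were tested on log2(RPKM + 1) with limma 3.58.1 (R 4.3.3; moderated test with a mean-variance trend, 2-sided, genotype only), and p-values were Benjamini-Hochberg adjusted over all of them. The log2 differences understate changes of low genes; folds are ratios of mean RPKM and are left out where a group lay under the floor. Shares, sums and ratios of isozymes were computed per library and compared by 2-sided exact permutation. RPKM is per length, so levels were compared between genes. The spacing of low values gave an estimate of depth; 84.9% to 92.3% of them lay within 0.2 of a whole fragment number (40% by chance). Floors cover counting error only. The fit was also run on simulated data with independent noise and known changes in a small part of the genes. Those data held no chromosome shifts, so that run cannot speak for the calls here. Upstream windows came from RefSeq's GRCm38.p6 table.

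The 35 genes, the related lists and the isozyme families were chosen with earlier results of these data known. Genes of a related list are named by the 4 smallest p-values, and isozymes outside the 35 where a family member passed. How often calls rest on 1 library was checked by leaving each out, for folds and shares too. Other alternatives covered the pseudocount, the minimum, scaling, chromosome centring, the variance prior, sample weights and a replicate block.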

Additional observations from a re-analysis of the deposited data

How the results depend on the processing

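Over 19 alternatives, 577 of 585 recomputed differences of the 31 tested genes kept their direction and 8 turned. Among those that kept their direction, 31 calls were lost and 4 gained. Where they turned, Slc2a1, Gapdh and Vhl also lost their calls, and Hk1 gained one without cKO replicate 3. For 18 genes nothing changed. With each chromosome centred, the log2 difference turned for Slc2a1 (−0.045), Gpi1 (−0.28), Ldha (−0.32), Gapdh (0.032) and Vhl (0.0039); that of Gapdh also turned under quantile normalization (0.017). Hk1 turned with limma's sample weights (0.052), and ranged from −0.30 to 0.20 on leaving out each library, with 0.20 without cKO replicate 3. Asking for an absolute log2 difference of at least 1 left 5 of the 35 genes higher and 7 lower, and 1632 and 1499 of all tested genes. Under the other alternatives 6 to 11 of the 35 were higher and 13 to 18 lower. Of all tested genes, whose number changes with the minimum, 3237 to 4865 were higher and 2487 to 3862 lower. Scaling by the median of ratios moved the median of all genes by −0.10. Replicate numbers did not pair the libraries: the correlations of same-numbered libraries were −0.02, 0.05 and −0.02, and only replicate 2 correlated best with its own number. With the replicate block 9 of the 35 were higher and 14 lower, Gapdh, Egln1 and Vhl losing their calls. Of all tested genes 3811 were higher and 2938 lower with the block. With 3 libraries a group, exact tests could not pass 0.05, and genes near 1 RPKM rest on few fragments.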
